A study of Mus musculus with 2 samples.

Results

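In the pancreatic islets, alpha cells make glucagon, the hormone that raises blood glucose, from the Gcg transcript. The transcription factors Pou3f4, Irx1 and Irx2 mark these cells, Pcsk2 cuts proglucagon to glucagon, and the precursor is packed into granules with chromogranins and secretogranins. Isl1, a transcription factor with LIM domains and a homeodomain, is made in endocrine cells of the islet. The cells described here were selected on 2 measured values, the shares of Gcg and of insulin transcripts, and are those of an Isl1CKO library that still held glucagon transcripts: cells with Gcg at 1% or more of their unique molecular identifiers (UMIs, counts of single captured mRNA molecules) and with the insulin genes Ins1 and Ins2 together under 1%. There were 172 such cells among the 8231 Isl1CKO cells and the 12450 cells of both libraries.

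The study made 1 single-cell 3′ library per genotype from tdTomato-sorted islet cells of 1-month-old mice, each from a pool of 3 animals. Isl1CKO mice were Neurod1 Cre/+; Isl1f/f, so that both floxed Isl1 alleles were open to a Cre expressed from the Neurod1 locus, and control mice were Neurod1 Cre/+; Isl1f/+. Both genotypes thus carried the Cre, the tdTomato reporter and at least 1 floxed Isl1 allele, and the pancreas was dissociated with actinomycin D, which blocks new transcription. The control library is labelled as males and the Isl1CKO library as female and male. A cell does not reveal its animal, and with 1 library per genotype there is no replicate check and no test. Intervals are exact 95% intervals and cover counting error only.

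The 172 cells, called Gcg-positive Isl1CKO cells below, were set beside 2251 Isl1CKO cells with at least 2 UMIs of Irx1 and Irx2 together and Gcg under 1% (Gcg-low Irx cells). They were also set beside 2110 control cells with Gcg at 5% or more (control Gcg-high cells). Levels of Gcg in all 3 groups, of Irx1 and Irx2 in the Gcg-low Irx cells, and the upper limit of insulin in the 172 cells were fixed by this choice and are descriptions. The libraries held 48685758 UMIs (control) and 86086781 UMIs (Isl1CKO), and the 172 cells had a median of 13239 UMIs against 9627 in Gcg-low Irx cells and 9792 in control Gcg-high cells. Their median mitochondrial share was 1.22% of UMIs, against 1.11% and 0.604%. The libraries shared 8 barcodes, none of them among the 172.

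Xist, transcribed in female cells, was found without Y-linked transcripts in 121 of the 172 cells (70.3%), and Y-linked transcripts without Xist in 30 (17.4%). In control Gcg-high cells the shares were 28.2% and 38.0%, although the control library is labelled as males, so that genotype and sex are unequally mixed in this comparison. Values within each sex are therefore given below for some of the genes where they differ, and a single ratio to control need not hold in both sexes. Isl1 itself could not check the deletion: its 3′ counts were 367 CPM (counts scaled to a sum of 1000000) in the 172 cells and 358 CPM in control Gcg-high cells, and which exons are floxed is not stated in the sources used here. Whether Isl1 protein was lost in these 172 cells is thus unknown.

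The promoter of Gcg is shown because it holds the glucagon transcript's own control region, and because the A/T core TAAT, or ATTA on the other strand, is the short motif that homeodomain factors including Isl1 bind. It lies on the minus strand at chr2:62483604-62483903 (GRCm38.p6, sequence from RefSeq), from 250 bases before the gene start to 50 after it, and the capitals mark TAAT or ATTA.

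Gcg: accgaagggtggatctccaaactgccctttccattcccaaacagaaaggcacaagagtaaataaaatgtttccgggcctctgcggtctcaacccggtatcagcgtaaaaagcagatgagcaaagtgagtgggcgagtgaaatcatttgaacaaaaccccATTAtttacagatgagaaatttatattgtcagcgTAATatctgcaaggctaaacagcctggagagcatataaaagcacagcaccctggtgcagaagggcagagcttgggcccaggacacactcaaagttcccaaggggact

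The 2 matches begin 91 and 57 bases before the gene start (positions -91 and -57). Such a match is common: 15762 of 27025 promoters of this length (58.3%) hold at least 1, and 34.5% hold as many as Gcg. The match is a description of the letters and not a measured binding site.

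Glucagon transcripts formed a tail rather than a separate group in Isl1CKO cells. Of the 8231 cells, 5634 (68.4%) had no Gcg UMI, 141 had Gcg at 0.5% to under 1% of UMIs, 105 at 1% to under 2%, 56 at 2% to under 5% and 11 at 5% or more. In control, 2110 of 4219 cells had 5% or more, and 7 had no Gcg UMI. The members just inside the limit (105 cells at 1% to under 2%) and those just outside it (139 cells at 0.5% to under 1% with insulin under 1%) thus lie on 1 slope. By the same rule 172 Isl1CKO cells (2.09%, 1.79 to 2.42) and 2150 control cells (51.0%, 49.4 to 52.5) held glucagon transcripts.

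**Figure D1:**
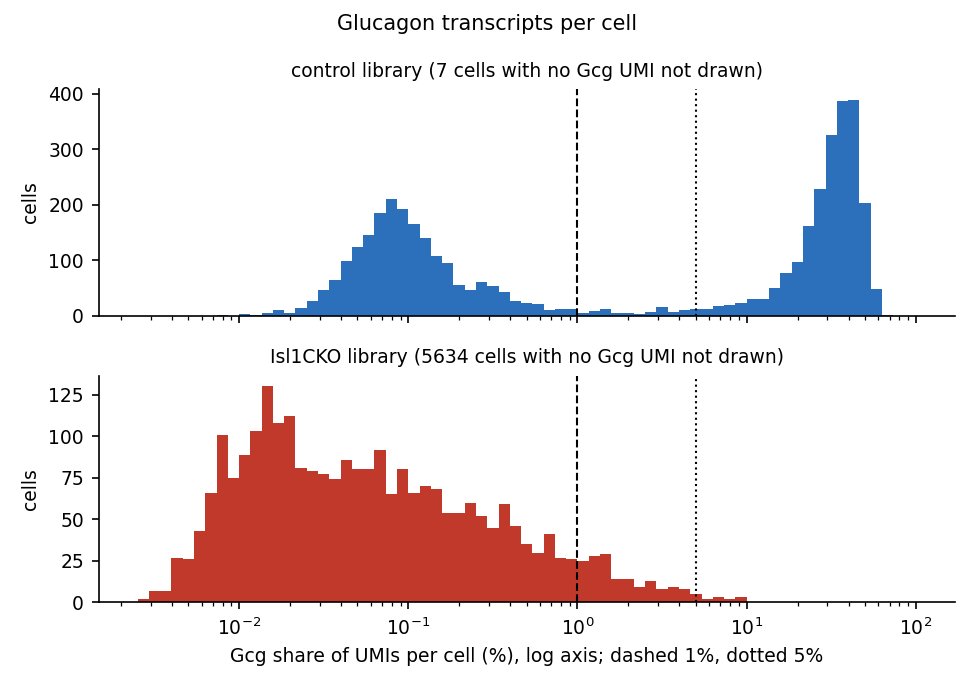
The Gcg share of each cell's UMIs (log axis, percent) is drawn as a histogram of cells for the control library (top) and the Isl1CKO library (bottom), with lines at 1% and 5%. Control cells fall into 2 humps, the upper one with a median of 33.8% among cells at 5% or more, while Isl1CKO cells decline without a gap across the 1% line to a highest value of 9.58%.

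Among the 172 cells the Gcg share ran from 1.01% through a median of 1.67% to 9.58%, and from 14 through 231 to 2023 Gcg UMIs per cell. In control Gcg-high cells the median was 33.8% and the highest 67.1%. In Gcg-low Irx cells it was 0.0192%, and 64.8% of those cells had at least 1 Gcg UMI. Barcodes with 1 to 100 UMIs, which hold free RNA rather than cells, had Gcg at 0.0890% of UMIs in Isl1CKO and 16.7% in control, so that the lowest of the 172 cells lay above the free-RNA share of their own library. Summed over cells and scaled by TMM (a factor that evens out libraries of unlike composition), Gcg stood at 24576 CPM in the 172 cells, 939 CPM in Gcg-low Irx cells and 391256 CPM in control Gcg-high cells. The log2 ratio to control was -3.99 (-4.00 to -3.98). The highest insulin share was 0.0932%, and removing the insulin limit left the same 172 cells.

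A gene counted as measured where either group of a comparison reached 20 CPM. It is called at a 2-fold or larger ratio whose interval excludes 1. Against control Gcg-high cells, 494 of 5831 genes were called higher (8.47%) and 454 lower (7.79%), or 16.3% in either direction. Against Gcg-low Irx cells of the same library, 26 of 5453 were called higher (0.477%) and 17 lower (0.312%), or 0.789% in either direction. The splits depend on the scaling. With unscaled CPM they were 856 higher and 243 lower against control and 13 and 40 against Gcg-low Irx cells. When the totals left out the hormone genes, they were 251 and 1206, and 13 and 35. The median log2 ratio of all measured genes against control was 0.04, which became 0.32 unscaled and -0.36 without hormone genes, so the values below are relative to this TMM scale.

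Transcription factors of alpha cells were unequal. Pou3f4, a POU-homeodomain factor of alpha cells, was called lower than in control, at 0.82 CPM against 42.9 CPM, a log2 ratio of -5.13 (-8.76 to -3.86), and it stood at 2.79 CPM in Gcg-low Irx cells. Its 0.82 CPM rests on 2 UMIs in all 172 cells. By contrast Irx1 and Irx2, Iroquois factors of alpha cells, were not called: Irx1 was at 160 against 156 CPM (log2 ratio 0.04, -0.12 to 0.19) and Irx2 at 147 against 146 CPM (0.02, -0.15 to 0.17). With unscaled CPM these ratios were 0.33 and 0.31, and with totals that omit hormone genes -0.36 and -0.38, so their direction depends on the scaling. An Irx1 UMI was found in 69.2% of the 172 cells and 66.8% of control Gcg-high cells, and after thinning to 3000 UMIs in 32.7% and 32.6%. Within each sex the Irx ratios had opposite signs, for Irx1 -0.40 in cells with Xist only and 0.99 in cells with Y-linked transcripts only, and for Irx2 -0.27 and 0.62. The ETS factor Etv1 (log2 ratio 0.70) and the imprinted factor Peg3 (0.04) were not called.

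Of the factors shared by all islet endocrine cells, 11 of 13 measured were not called against control, 1 was called higher and 1 lower (median -0.12). The share called lies near the 16.3% of all measured genes called in either direction, so the count does not set this list apart. Pax6, which binds the Gcg promoter in alpha cells, was at 241 CPM against 164 CPM (log2 ratio 0.56, 0.43 to 0.68), Neurod1 at 257 against 280 CPM and Nkx2-2 at 98.7 against 91.7 CPM. The serotonergic factor Fev was called higher, at 152 against 55.4 CPM (1.46), and Myt1l lower, at 10.2 against 38.7 CPM (-1.87). Among partners of LIM-homeodomain factors, Lmo4, an adaptor that binds the LIM cofactor Ldb1, was called higher, at 35.5 against 11.1 CPM (1.69, 1.30 to 2.04), and the other 5 measured, Ldb1 among them, were not called. Neither of these lists had a called gene against Gcg-low Irx cells. Only 0.789% of all measured genes were called there, so the absence of calls does not set these short lists apart.

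**Figure D2:**
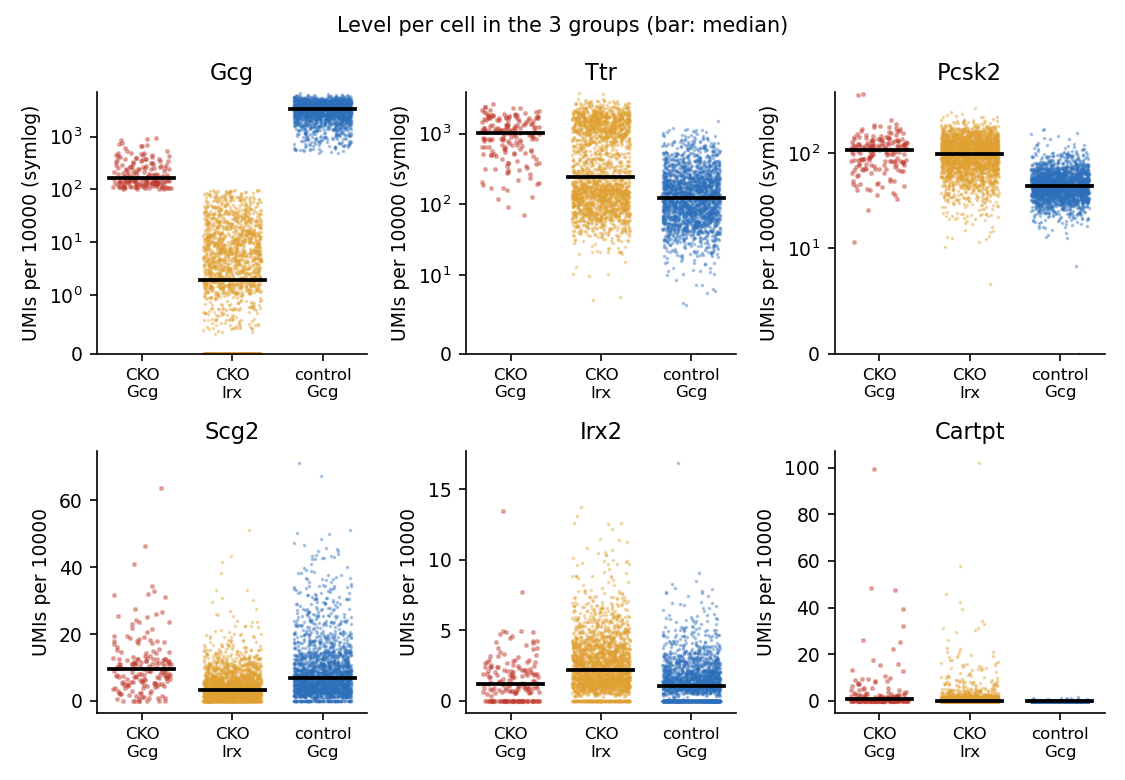
Each point is 1 cell, plotted as UMIs per 10000 (symmetric log axis for Gcg, Ttr and Pcsk2, linear for the others), in the 172 Gcg-positive Isl1CKO cells (red), Gcg-low Irx cells (yellow) and control Gcg-high cells (blue), with the median as a bar. The Ttr median is 1037 in the 172 cells against 240 and 123, and the Scg2 median is 9.47 against 3.11 and 6.74.

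The alpha cell marker Ttr was very high. Ttr encodes transthyretin, a carrier of thyroid hormone and retinol-binding protein that alpha cells make, and it took up 10.5% of all UMIs of the 172 cells, more than the 2.51% of Gcg. Per 10000 UMIs it ran from 71.3 through a median of 1037 to 2633, against a median of 240 in Gcg-low Irx cells and 123 in control Gcg-high cells. The level was 102968 CPM, against 72594 and 21432 CPM, and the log2 ratio to control was 2.26 (2.26 to 2.27). Ttr was 3.77% of the free RNA of the Isl1CKO library and 1.09% of that of control, a difference in the same direction as this ratio. It was found in 26 of 27 Isl1CKO non-endocrine cells, at a median of 12.4 per 10000 UMIs. The part of free RNA in the Ttr ratio was not tested. In Gcg-low Irx cells Ttr spanned the widest range, from 6.78 to 3700 per 10000, so that Ttr did not set the 172 cells apart: the log2 ratio to them was 0.50, and it was 1.24 in cells with Xist only and -0.34 in cells with Y-linked transcripts only.

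Other alpha cell genes moved in both directions against control, with 4 of 17 called higher and 6 lower (median -0.89). On the high side stood Slc38a5, a glutamine transporter induced in alpha cells by amino acids (1566 against 116 CPM, log2 ratio 3.76), and Gc, the vitamin D-binding protein (610 against 94.0 CPM). Gc was found in 91.3% of the 172 cells and 42.8% of control Gcg-high cells, or 70.9% and 18.9% after thinning, against 3 of 27 Isl1CKO non-endocrine cells (median 3173 UMIs). Slc38a5 was uneven among the cells, from 0 through a median of 3.67 to 139 per 10000 UMIs, and its ratio was 2.13 in cells with Xist only and 5.15 in cells with Y-linked transcripts only. On the low side, Arg1, the arginine-cleaving arginase, had no UMI in the 172 cells against 196 CPM in control. Taken against 3 counts summed over the 172 cells, Arg1 was at least 160-fold lower. Dpp4, the peptidase that inactivates GLP-1, stood at 5.30 against 77.2 CPM (-3.76) and the arginine transporter Slc7a2 at 59.1 against 398 CPM (-2.74). The kinase gene Wnk3 stood at 78.3 against 256 CPM (-1.70) and Tmsb15l, of the thymosin beta family, at 11.4 against 238 CPM (-4.33). Against Gcg-low Irx cells 0 of 14 measured genes of this list were called, beside 0.789% of all measured genes, with a median of 0.04.

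The machinery that turns a prohormone into a stored peptide was present. Pcsk2 was found in all 172 cells, from 11.5 through a median of 107 to 419 per 10000 UMIs, and at 9730 CPM against 5277 CPM in control (log2 ratio 0.88, not called). The granule protein Chga, chromogranin A, took up 9.67% of all UMIs, at 94539 against 9808 CPM (3.27, 3.26 to 3.28). Per 10000 UMIs Chga ran from 117 through 1016 to 2534 in the 172 cells and from 0 through 74.5 to 503 in control Gcg-high cells, so that the groups overlapped between 117 and 503. Of 14 measured granule and processing genes, 5 were called higher than in control and 2 lower (median 0.58). The others called higher were Chgb (1.79), the exopeptidase Cpe (1.20), Scg3 (1.06) and the granin Vgf (4.85, 175.8 against 6.06 CPM), and those called lower were Pcsk1n, which encodes the inhibitor proSAAS (-1.03), and Resp18 (-1.46). Some of these calls against control depend on the scaling. With totals that omit hormone genes the ratios of Cpe and Scg3 were under 2-fold, and with unscaled CPM so was that of Pcsk1n. Against Gcg-low Irx cells 2 of the 14 were called higher, Scg2 and Vgf, and none lower.

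Most genes of stimulus and release were not called against control. Of 16 measured secretion and channel genes, 4 were called lower and none higher (median -0.06), beside 7.79% and 8.47% of all measured genes. Abcc8, the sulfonylurea receptor subunit of the KATP channel, stood at 4.08 CPM against 240 CPM (234 to 247), a log2 ratio of -5.74. Of its 10 UMIs in the 172 cells, 1 cell held 5. The Abcc8 ratio was -7.54 in cells with Xist only and -3.78 in cells with Y-linked transcripts only. The sodium channel Scn9a was at 1.22 against 30.2 CPM (-4.21) and the vesicle GTPase Rab3a at 62.4 against 127 CPM (-1.02). The calcium channel Cacna1a had a log2 ratio of -1.15. With unscaled CPM the ratios of Rab3a and Cacna1a were under 2-fold. Of 7 measured receptors, 3 were called lower: the fatty acid receptors Ffar1 (0.82 against 27.6 CPM) and Ffar2 (26.1 against 76.7 CPM), and Gpr119 (3.26 against 30.7 CPM). The Ffar2 ratio was -3.61 in cells with Xist only and -0.07 in cells with Y-linked transcripts only. Snap25, Vamp2 and Syt7, of the fusion machinery, had log2 ratios of 0.15, -0.14 and -0.32. Neither list had a called gene against Gcg-low Irx cells, where 0.789% of all measured genes were called.

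Sst, Ppy and Pyy, hormones of other islet cell types, were close to absent. Of 8 measured islet hormone genes, Gcg included, 7 were called lower than in control and 1 higher, Ghrl (median -6.10). Somatostatin (Sst) was found in 2 of the 172 cells and pancreatic polypeptide (Ppy) in 4, at 3.26 and 12.6 CPM, and 74.2% of the Ppy UMIs came from 1 cell. Peptide YY (Pyy) stood at 4.89 CPM. In control Gcg-high cells these transcripts were at 9344, 26503 and 25877 CPM. Ppy was found in 98.8% of those cells, but also in 18 of 18 control non-endocrine cells, so that detection alone does not mark cells that express it. Control cells were also limited to those under 1% for insulin, Sst and Ppy. With this limit the log2 ratios were -6.29 for Sst (-11.31 without it), -7.01 for Ppy (-10.99) and -10.26 for Pyy (-12.25). Sst, Ppy and Pyy were 2.73%, 6.88% and 6.55% of the free RNA of the control library. In that of Isl1CKO they were 0.00531%, 0.00671% and 0.0145%, a difference in the same direction as these ratios. The median shares of Sst and Ppy in control Gcg-high cells lay under those of control non-endocrine cells, and that of Pyy lay above. The part of free RNA in these ratios was not tested. Ins2 was found in 89.0% of the 172 cells (50.3% after thinning to 3000 UMIs), at 192 CPM against 10938 CPM in control. Control Gcg-high cells were not selected on insulin and reached an insulin share of 55.9%. With the same limit on control cells, the log2 ratio was -1.99 for Ins2 (-5.83 without it) and -2.55 for Ins1 (-6.36). An Ins2 UMI was also found in 22 of 27 Isl1CKO non-endocrine cells, 81.5% at a median depth of 3173 UMIs, with up to 397 in a cell. Ins2 was 2.01% of the free RNA of that library, and the part of free RNA in the Ins2 of the 172 cells was not tested. Islet amyloid polypeptide, Iapp, had a ratio of -1.50 that turned to 1.63 under this limit, and 89.3% of the Iapp UMIs of the 172 cells came from 1 cell. Of 8 measured beta cell genes 5 were called lower than in control and 1 higher, the prolactin receptor Prlr (2.55). Slc30a8, the granule zinc transporter, was at 239 against 702 CPM (-1.55).

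A small set of other peptide genes was higher than in control. Of 6 measured members of the list of gut hormones and neuropeptides, 5 were called higher than in control (Cartpt, Sct, Cck, Calca at 2.16 and the transcription factor Fev at 1.46) and 1 lower, Ddc (median 3.94). Against Gcg-low Irx cells 3 of the 6 were called higher, Cartpt, Sct and Cck, beside 0.477% of all measured genes. Cartpt, the precursor of the CART peptide of neurons and some endocrine cells, was found in 56.4% of the 172 cells, 29.4% of Gcg-low Irx cells and 0.806% of control Gcg-high cells. After thinning to 3000 UMIs the shares were 38.2%, 14.6% and 0.0984%, and 2 of 27 Isl1CKO non-endocrine cells held a Cartpt UMI. Its level was 405 CPM (380 to 431) against 117 CPM and 0.97 CPM, with 15.3% of its UMIs in 1 cell with Gcg at 8.78%. Sct, the gut hormone secretin, was found in 78.5%, 42.4% and 6.11% of cells, at 388, 178 and 7.33 CPM (thinned shares 51.5%, 24.6% and 1.72%), and in none of the 27 non-endocrine cells. A count of 0 there, taken as 3 counts at most, limits the share of cells with a Sct UMI to 11.1% and says nothing of cells that express it. In the free RNA of the Isl1CKO library Cartpt was 0.0150% and Sct 0.0247% of UMIs, against 0.000264% and 0.000793% in control, and the part of free RNA in these levels was not tested. Ghrl, the ghrelin precursor of the islet hormone list, was found in 25.0%, 11.6% and 1.71% of cells, at 75.04, 36.5 and 1.94 CPM. After thinning the shares were 9.70%, 4.31% and 0.541%, and 2 of 27 Isl1CKO non-endocrine cells, 7.41% at a median of 3173 UMIs, held a Ghrl UMI. Ghrl was 0.0416% of the free RNA of the Isl1CKO library and 0.000264% of that of control, a difference in the same direction as its ratio to control, and the part of free RNA in that ratio was not tested. Cck, cholecystokinin, was at 33.0, 10.0 and 0.15 CPM, but 27.2% of its UMIs in the 172 cells came from the same cell with Gcg at 8.78%. Ddc, the decarboxylase of serotonin and dopamine synthesis, was called lower than in control, at 42.0 against 183.5 CPM (-2.11). The ratios of Cartpt, Sct, Ghrl and Cck to control were positive in both sexes.

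**Figure D3:**
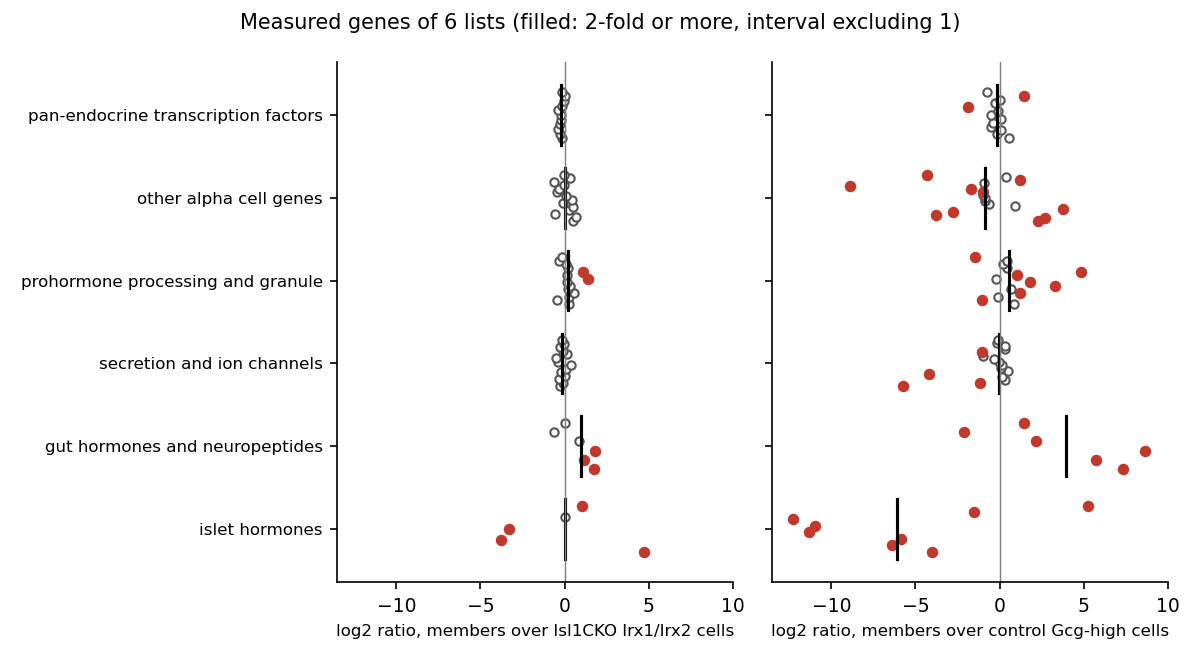
Each point is a measured gene of 1 of 6 lists, at its log2 ratio of the 172 Gcg-positive Isl1CKO cells over Gcg-low Irx cells (left) and over control Gcg-high cells (right), filled where called, with the list median as a bar. Against Gcg-low Irx cells the calls lie among granule genes, gut hormones and islet hormones, and against control every one of the 6 lists has called genes.

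The comparison inside the Isl1CKO library asks what else differed in cells that held glucagon transcripts. Gcg itself was fixed by the choice. Gcg-low Irx cells had no insulin limit, and the ratios of Ins1 and Ins2 (-3.78 and -3.31) are read with that difference. Of the other genes called higher, Scg2, a secretogranin of dense-core granules, was the most abundant: it was found in 95.3% of the 172 cells and 80.5% of Gcg-low Irx cells, or 84.8% and 59.1% after thinning. Per 10000 UMIs Scg2 ran from 0 through a median of 9.47 to 63.56, against 0 through 3.11 to 51.08, so that the medians differed and the ranges overlapped. Its level was 1104 CPM (1062 to 1146) against 427 CPM (419 to 434), a log2 ratio of 1.37 (1.31 to 1.43), and control Gcg-high cells stood at 1259 CPM. Cartpt followed with a ratio of 1.79 (1.69 to 1.90), Sct with 1.13 (1.02 to 1.23), Vgf with 1.09 (0.93 to 1.23) and Ghrl with 1.05 (0.81 to 1.27). Spink4, a trypsin-inhibitor family peptide of gut secretory cells, was at 60.0 against 13.1 CPM (2.21, 1.92 to 2.48), the thyroxine-binding globulin Serpina7 at 181 against 78.6 CPM (1.21) and the tweety family gene Ttyh1 at 230 against 110 CPM (1.07). The tetraspanins Tspan8 (1.38) and Cd9 (1.07) and the gluconeogenic enzyme Fbp1 (1.05) were the other named genes, and 20.8% of the Tspan8 UMIs came from 1 cell.

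Several of these calls sit near the 2-fold line or on few cells. With unscaled CPM and with totals that omit hormone genes, the ratios of Sct (0.94 and 0.97), Vgf, Ttyh1, Cd9, Fbp1 and Ghrl fell under 2-fold, while those of Spink4, Cartpt, Tspan8, Scg2 and Serpina7 did not (lowest 1.02, Serpina7). In cells with Y-linked transcripts only (30 of the 172), Scg2 was at 0.57, Vgf at 0.20, Spink4 at 0.75 and Ghrl at -0.56, against 1.48, 1.27, 2.46 and 1.17 in cells with Xist only, and this difference was not tested. In all, 6 of the 26 genes called higher drew over 25% of their UMIs from 1 cell: Serpina1a, Serpina1b, Apoa1, Fgb, Wfdc15b and Cck, of which Apoa1 and Fgb shared the same cell. They are named for that reason, after their values were seen. Of the 26, 22 were also called higher than in control, beside 8.47% of all measured genes. Both comparisons use the same 172 cells, so this overlap is in part built in.

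Genes called lower than in Gcg-low Irx cells included 5 of 5 measured acinar markers, such as the protease precursors Ctrb1 (-1.93) and Try5 (-1.24). Gcg-low Irx cells reached an insulin share of 38.5% and 1937 acinar UMIs in a cell, while the 172 cells had at most 18. With both groups limited to the 4 clusters that hold 170 of the 172 cells and to insulin under 1%, Ctrb1 stood at -0.33, Try5 at 0.19 and Ins2 at -0.13 (from -3.31), while Scg2 stood at 1.33, Cartpt at 1.83 and Spink4 at 2.16. There, 20 genes were called higher, all among the 26, and 9 lower. Id2, an inhibitor of helix-loop-helix factors and the 1 progenitor gene called, was at 7.75 against 21.6 CPM (-1.41), and at -1.23 under this limit. Sox4, a factor of endocrine progenitors, was at 86.9 against 171 CPM (-0.97), just short of a call.

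Some of these genes were higher in cells with a larger Gcg share and others were not. Over Isl1CKO cells with insulin under 1%, CPM were computed without Gcg UMIs in 4 ranges of Gcg share, with 139 cells at 0.5% to under 1%, 105 at 1% to under 2%, 56 at 2% to under 5% and 11 at 5% or more. Scg2 was at 829, 1003, 1304 and 1619 CPM in this order, with 20.8% of its UMIs in the last range from 1 cell. Cartpt was at 171 CPM (152 to 191), 269 and 560 CPM in the lower 3 ranges. In the last range it was at 934 CPM, but 1 cell held 152 of its 169 UMIs there, and without that cell it stood at 102 CPM (59.3 to 163), under the lowest range. Ghrl was at 31.9, 47.7, 75.4 and 321 CPM, with 62.1% of the last from 1 cell, and at 142 CPM (89.0 to 215) without it. Sct was at 357, 380, 421 and 547 CPM and Cd9 at 123, 174, 188 and 276 CPM. Vgf was level over the lower 3 ranges, at 164.5, 163 and 190 CPM, and stood at 315 CPM in the last (233 CPM, 167 to 318, without its top cell). Fbp1 was at 128, 156, 201 and 254 CPM, but at 159 CPM in the last range without its top cell. Spink4, Serpina7, Tspan8 and Ttyh1 had no single order, with Serpina7 at 120, 149, 279 and 77.4 CPM. Sox4 went the other way, at 137, 107, 77.8 and 38.7 CPM (15.6 to 79.7), the last from 7 UMIs, as did Pcsk1n, at 6140, 5703, 4910 and 3443 CPM. Etv1 was at 315, 343, 389 and 713 CPM (595 to 847), with 28.7% of the last from 1 cell, and at 586 CPM (473 to 719) without it. Isl1 stood at 443, 377, 400 and 381 CPM, with overlapping intervals in the upper 3 ranges, and Ttr had no single direction. Median depth ran from 12038 UMIs in the first range to 15974 in the last. Cells with Y-linked transcripts only were 30 of 139, 21 of 105, 8 of 56 and 1 of 11 cells over the ranges. The part of depth and of sex in these orders was not tested. Across the 172 single cells no gene of 4807 reached a Spearman rho of 0.4 with the Gcg share, and 4 reached 0.3 (Ssr4, Bola3, Apoa2 and Spink4). The depth of a cell had a rho of 0.24 with it, and all these values share the same cells and depth.

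**Figure D4:**
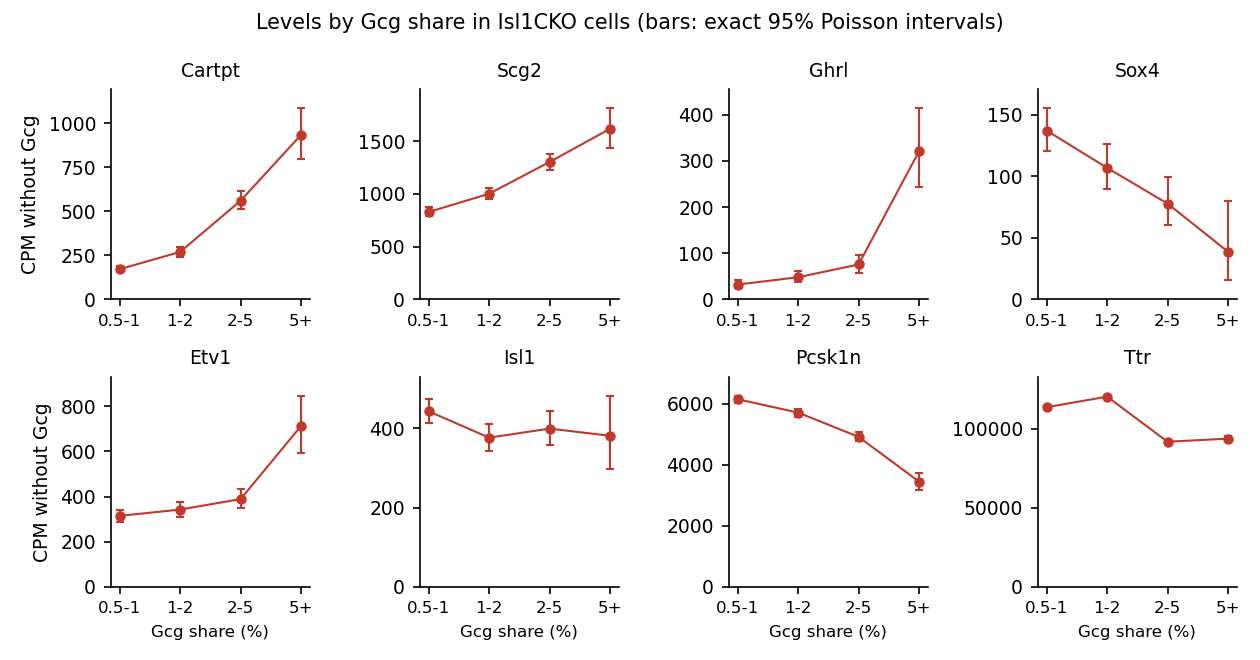
CPM computed without Gcg (vertical axes, from 0) are plotted for 8 genes over 4 ranges of the Gcg share of UMIs in Isl1CKO cells with insulin under 1%, with exact 95% Poisson intervals as bars. Scg2, Ghrl and Etv1 are highest and Sox4 and Pcsk1n lowest in the 11 cells with Gcg at 5% or more, while the last Cartpt value rests on 1 cell, which held 152 of 169 UMIs (102 CPM without it).

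Clustering the 8231 Isl1CKO cells without the Gcg gene placed the 172 cells unevenly. There were 12 clusters, and 170 of the 172 cells lay in 4 of them: 41 of 1472 cells in cluster 0 (2.79%), 43 of 808 in cluster 4 (5.32%), 50 of 644 in cluster 6 (7.76%) and 36 of 132 in cluster 9 (27.3%, 19.9 to 35.7). Clusters 5 and 8 held 1 each, and 6 clusters with 3952 cells held none. Cluster 9 was led by Gcg, Agt, Ttyh1, Vgf, Ttr and Sct and cluster 6 by Gcg, Junb and Basp1. Of cells with sex-linked transcripts of 1 kind, those with Xist made up 2.96% in cluster 4, led by Slc38a5 and Rbp4, and 99.9% to 100% in the other 3, so that the clusters part by sex. The 172 cells were 2.25% of the cells with Xist only and 1.78% of those with Y-linked transcripts only. They were 5.22% (4.36 to 6.19) of cells with at least 2 Irx1 and Irx2 UMIs and 0.820% (0.605 to 1.09) of the others. With cells thinned to 3000 UMIs they were 4.76% (3.87 to 5.78) of cells with a UMI of either gene and 1.25% (0.977 to 1.58) of those without.

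**Figure D5:**
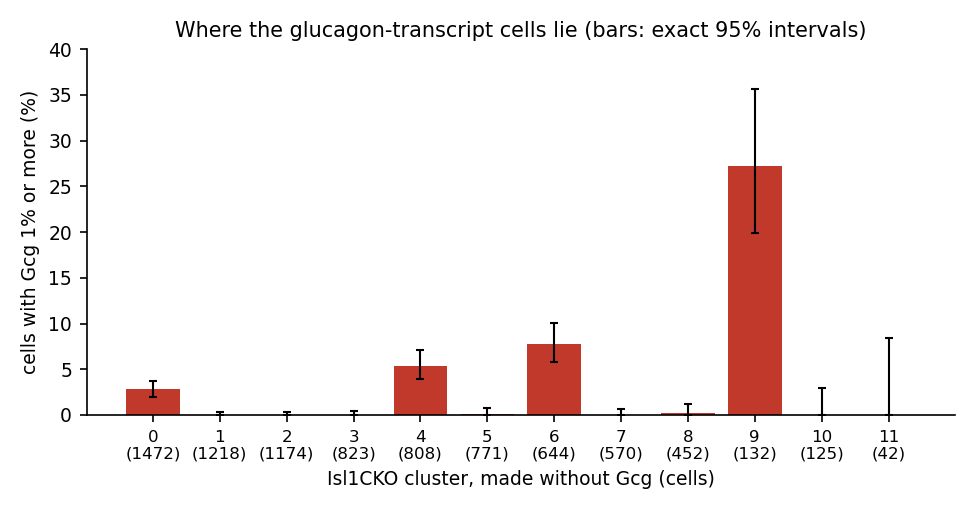
Bars give the percent of cells in each of 12 Isl1CKO clusters, made without Gcg, that had Gcg at 1% or more, with exact 95% binomial intervals and the number of cells in brackets under each cluster number. Cluster 9, with 132 cells, holds the largest share at 27.3%, and clusters 0, 4 and 6 hold 2.79% to 7.76%.

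Within each of the 4 clusters the Gcg-positive cells were set beside the Gcg-low Irx cells of the same cluster, in unscaled CPM. Scg2 was higher in all 4, at 1008 against 437 CPM in cluster 0, 710 against 478 in cluster 4, 1509 against 646 in cluster 6 and 1212 against 789 in cluster 9. Cartpt was also higher in all 4, at 190 against 72.1, 531 against 211, 494 against 52.2 and 370 against 188 CPM. In cluster 6, 152 of the 357 Cartpt UMIs of the Gcg-positive cells came from the 1 cell with Gcg at 8.78%. Ttr was higher in clusters 0 and 6 (93143 against 36023 and 88748 against 55377 CPM) and lower in clusters 4 and 9 (111587 against 140934 and 132795 against 163179 CPM). The counting intervals of these pairs did not overlap.

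Beyond the peptides above, the genes named for the highest ratios to control Gcg-high cells were Cidea, a lipid droplet protein (365 against 4.38 CPM, 6.37), Ttyh1 (5.93), the RNA-binding Zfp36l1 (5.49), Klf15 (5.49), the ubiquitin protease Usp2 (4.80), the angiotensin precursor Agt (753 against 27.2 CPM, 4.79), the protease Prss23 (4.55) and Serpina7 (4.51). Genes with low ratios included Fam159b, with no UMI in the 172 cells and at least 66.6-fold lower against 3 counts over the group, the metalloprotease Pappa2 (-6.06), the endothelin Edn3 (-4.74) and the calcium sensor Scgn (-4.61). Fam159b was found in only 10.9% of control Gcg-high cells. With control cells limited to those under 1% for insulin, Sst and Ppy, its log2 ratio of -7.64 became -3.39. Under that limit Pappa2, Edn3 and Scgn stood at -6.15, -4.91 and -4.62. Several of these ratios differed by sex. In cells with Xist only Klf15, Usp2, Agt and Edn3 were at 6.68, 5.62, 5.56 and -6.97. In cells with Y-linked transcripts only they were at 2.65, 1.75, 3.44 and -3.37. Prss23 and Serpina7 were instead higher in cells with Y-linked transcripts only, at 5.15 and 5.11 against 4.27 and 4.25. Cidea was at 271 CPM, Agt at 883 CPM, Pappa2 at 3.93 CPM and Scgn at 22.8 CPM in Gcg-low Irx cells, nearer to the 172 cells than to control. Of 948 genes called against control, 34 were also called against Gcg-low Irx cells, beside 0.789% of all measured genes. The 172 cells enter both comparisons, so the 2 sets of calls are not independent.

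Genes responsive to glucocorticoids and immediate early genes were high against control and moved with sex. Of 12 measured glucocorticoid-responsive genes 9 were called higher and 1 lower (median 2.04), and the median was 2.90 in cells with Xist only and 0.23 in cells with Y-linked transcripts only. Of 10 immediate early genes 6 were called higher and 1 lower (median 1.07), with medians of 1.38 and -0.56. The Kruppel-like factor Klf15 stood at 82.0 against 1.78 CPM (5.49), the mTOR inhibitor gene Ddit4 at 188 against 14.7 CPM (3.68) and the Jun family gene Junb at 279 against 46.6 CPM (2.58), while Jun was lower, at 44.5 against 134 CPM (-1.58). Of 15 stress and hypoxia genes 7 were called higher and 1 lower. Among them were the thioredoxin-binding Txnip (2.73), the arrestin-domain gene Arrdc4 (4.23) and the chaperone Hspa5 (1.14). With totals that omit hormone genes the Hspa5 ratio was under 2-fold. None of the 3 lists had a called gene against Gcg-low Irx cells, where 0.789% of all measured genes were called. The part of sex, animal and handling in these ratios to control cannot be told apart from genotype.

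Marker lists of other cell types were summed in each group, and their part in the results was not tested. The summed level of 18 acinar markers was 126 CPM, against 373 CPM in Gcg-low Irx cells and 327 CPM in control Gcg-high cells, with Ctrc and Amy2a2 at 0. The summed level of 10 ductal markers was 810, 717 and 664 CPM, highest in the 172 cells, with Krt19, Sox9, Cftr and Tff2 at 0. Immune markers summed to 81.6, 87.2 and 168 CPM with Ptprc, Csf1r and H2-Aa among those at 0, and endothelial markers to 13.9, 13.5 and 9.07 CPM, again highest in the 172 cells, with Cdh5, Kdr, Flt1 and Emcn at 0. Stromal markers summed to 5.71, 4.17 and 16.0 CPM with 8 of 10 at 0, Schwann and glial markers to 22.4, 21.1 and 45.4 CPM with Sox10, S100b and Foxd3 at 0, and all 5 red blood cell markers were at 0. A doublet score at the control library's threshold marked 5 of the 172 cells (2.91%), 6.53% of Gcg-low Irx cells and 8.77% of control Gcg-high cells, and without marked cells 26 genes were called higher and 20 lower against Gcg-low Irx cells.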

How the data were processed

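The deposited files are 2 unfiltered matrices of whole-number UMI counts, made by the authors with STARsolo (STAR 2.7.3a) on GRCm38.p6, with Seurat 4.3.0.1 also named, per the submitters' processing notes. Cells needed 1000 UMIs, 500 genes and at most 15% mitochondrial UMIs. Counts were summed over the cells of each group, scaled by TMM (edgeR 4.0.16, used for scaling only) and compared as log2 ratios with 1 added to each sum and exact conditional Poisson intervals. Shares have exact Clopper-Pearson intervals. Before use the procedure was run on simulated Poisson counts with known folds. These counts held no variation between cells, animals or sexes, so the run does not bear on such variation. Gene positions are those of GENCODE mouse release 21. Doublets were scored with Scrublet and kept, since its own threshold marked 249 of 4219 control cells but 0 Isl1CKO cells, so it did not work there. Clusters came from 2000 variable genes, 30 principal components, 15 neighbours and Leiden at resolution 1.0 (scanpy 1.11.5, leidenalg 0.10.2), without Gcg.

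The cells and gene lists were chosen with earlier results of these data known. Genes named are list members and, per comparison, up to 12 with the highest and 12 with the lowest ratio among genes with 50 CPM, 20 UMIs and detection in 10% of cells in the higher group, no cell with over 25% of that group's UMIs, and 1 direction under each scaling. The 10 genes most correlated with the Gcg share could also be named. No sequence of Ttr is shown. Some genes are not reported here.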

Additional observations from a re-analysis of the deposited data

Results flagged for a closer look

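For the 6 genes given here the ratio of Gcg-positive Isl1CKO cells to control Gcg-high cells had opposite signs in the sexes. The sexes were cells with Xist only (121 against 595 cells) and cells with Y-linked transcripts only (30 against 802 cells). These are not all such genes, since Irx1, Irx2 and Cd9 (1.97 and -0.35) also had opposite signs. The difference between the sexes was not tested, since each sex in each library may be a single animal. Egr1, an immediate early factor, had a log2 ratio of 3.11 (2.81 to 3.43) in cells with Xist and -0.92 (-2.22 to -0.12) in cells with Y-linked transcripts. Klf9, a glucocorticoid-responsive factor, had 2.75 (2.55 to 2.97) and -0.82 (-1.69 to -0.20), and the glutamate receptor Gria3 1.4998 (1.26 to 1.74) and -1.26 (-2.29 to -0.58). The tdTomato reporter had 2.41 (2.35 to 2.46) and -0.34 (-0.46 to -0.23). In the other direction, Rbp4, the retinol-binding protein, had -2.52 (-2.63 to -2.42) and 0.17 (0.09 to 0.24), and Iapp -4.13 (-4.28 to -3.99) and 0.62 (0.57 to 0.67), with 89.3% of the Iapp UMIs of all 172 cells in 1 cell.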

How the results depend on the processing

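No paired analysis was possible because each genotype has 1 library and the labels share a single replicate number. Counts of called genes are given as higher and lower, first against Gcg-low Irx cells (26 and 17) and then against control Gcg-high cells (494 and 454). They were 13 and 40, 856 and 243 with unscaled CPM, and 13 and 35, 251 and 1206 when the totals omitted hormone genes. They were 234 and 227, 1250 and 1512 without a filter on low counts, and 17 and 4, 300 and 182 with a filter at 50 CPM. Against Gcg-low Irx cells alone, a Gcg limit of 0.5% gave 10 lower, a limit of 2% gave 41 and 59, cells with Xist only 49 and 31, and cells with Y-linked transcripts only 88 and 118. The number of cells became 311 at a Gcg limit of 0.5% and 67 at 2%. Alternatives added after seeing the data gave 64 and 35 against Irx cells without a Gcg UMI, 26 lower with at least 2 Irx1 and Irx2 UMIs in every cell, 9 lower within the 4 clusters, and 18 and 18 without cluster 9. DESeq2 1.42.0 size factors, a minimum of 3000 UMIs and removing marked doublets kept all 4 counts within 1.5 times. In cells with Y-linked transcripts only, some ratios changed sign, and not all of them are listed here. Those to Gcg-low Irx cells included Cck (-0.25), Ghrl (-0.56), Calca (-0.73, from 0.87) and Ddit4 (0.78, from -0.20). Those to control included Egr1 (-0.92), Klf9 (-0.82), Errfi1 (-0.55), Gria3 (-1.26), Cd9 (-0.35), tdTomato (-0.34), Iapp (0.62) and Rbp4 (0.17). The cause was not tested, and only 30 of the 172 cells enter there. The 172 cells sum to 2396558 UMIs, so that low levels rest on few counts, as with the 2 UMIs of Pou3f4.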
